A study of Mus musculus with 6 samples.

Results

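The 7 genes mt-Nd1, mt-Nd2, mt-Nd3, mt-Nd4, mt-Nd4l, mt-Nd5 and mt-Nd6 encode the subunits of respiratory complex I that are made inside the mitochondrion. They were taken from the deposited table by Ensembl gene identifier, and all 7 were found among its 16665 genes. RAW 264.7 is a mouse macrophage-like cell line of leukaemic origin. The compared groups were 3 libraries of these cells transfected with a miR-125b mimic (labelled as overexpression) and 3 transfected with a negative control, abbreviated NC in the labels and given there as wild type for miR-125b. Dose, time after transfection and the arm of the microRNA are not given in the labels. Nor is it said that libraries of 1 group were grown as separate cultures. A p-value here sets the difference between groups against the spread of these libraries within groups, and that spread may be technical. Levels are in FPKM, a fragment count divided by exonic length and by depth. Other differences between genes or between libraries, such as shared sequence or RNA composition, are not removed by it. Depth, recovered from the low values, ran from 14.4 to 16.8 M fragments, and from 13266 to 15470 genes were above 0. The macrophage genes Adgre1, Csf1r, Cd68, Lyz2, Ptprc and Itgam were all present, the lowest at 11.7 FPKM, and the fibroblast gene Col1a1 was at most 0.0453 FPKM. In bulk RNA, fewer cells of a type and less RNA per cell cannot be told apart.

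Negative control 3 and mimic 3 stood apart from the other libraries of their groups. The array weights of limma, which are low for a library that departs from its group, were 0.0908 and 0.339 for these libraries against 1.72 to 3.44 for the other 4. Results are therefore given with and without them.

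Complex I is the largest enzyme of the respiratory chain. It takes electrons from NADH, passes them to ubiquinone and pumps protons across the inner membrane. Its peripheral arm is built from nuclear genes, and the hydrophobic core of its membrane arm from mitochondrial DNA. Mt-Nd2, mt-Nd4 and mt-Nd5 are the antiporter-like subunits that carry proton channels. Mt-Nd1 helps to form the quinone site where the arms meet, and mt-Nd3, mt-Nd4l and mt-Nd6 are small subunits packed beside it. Mitochondrial DNA is read into long RNAs from both strands, which are cut mainly at the transfer RNAs between genes. Mt-Nd6 is the only protein-coding gene read from the opposite strand, while mt-Nd4l and mt-Nd4 stay together on a single messenger RNA. In mammals the mt-Nd5 messenger runs on past its stop codon through the stretch opposite mt-Nd6. In macrophages, complex I is also known as a source of reactive oxygen during inflammatory activation.

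The layout of the genes decides which reads can be told apart, so the joins are shown first. Positions are those of GENCODE M21 on GRCm38 (mm10), and bases were read from its transcripts. Mt-Nd4l, the shortest member, spans chrM:9877-10173 on the plus strand, and its last 7 bases, in capitals, are also the first 7 of mt-Nd4 (chrM:10167-11544).
mt-Nd4l: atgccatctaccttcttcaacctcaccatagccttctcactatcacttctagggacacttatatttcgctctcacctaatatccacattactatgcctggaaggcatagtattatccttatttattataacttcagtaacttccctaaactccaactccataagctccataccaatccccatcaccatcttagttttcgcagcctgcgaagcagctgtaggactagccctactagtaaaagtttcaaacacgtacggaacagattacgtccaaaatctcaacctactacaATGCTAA
mt-Nd4: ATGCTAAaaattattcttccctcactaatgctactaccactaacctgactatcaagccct
The ends of mt-Nd5 (chrM:11742-13565, plus strand) and mt-Nd6 (chrM:13552-14070, minus strand) face each other and overlap by 14 bases. Capitals mark the overlap at the end of each gene, and the capitals of one line are the reverse complement of the other.
mt-Nd5: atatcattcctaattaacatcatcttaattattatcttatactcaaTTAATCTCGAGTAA
mt-Nd6: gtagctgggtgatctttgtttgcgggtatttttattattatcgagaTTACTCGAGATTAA
Whether the counting used strand is unknown. Without strand, reads from the mt-Nd5 messenger that run past its stop codon cannot be told apart from reads of mt-Nd6. Of the other members, mt-Nd1 lies at chrM:2751-3707, mt-Nd2 at chrM:3914-4951 and mt-Nd3 at chrM:9459-9806, all on the plus strand.

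Several members have near-identical copies in nuclear DNA. A BLAST search of the annotated transcripts found copies of 6 of the 7 members with at least 90% identity over at least 100 bases. Mt-Nd1 had none. On chromosome 1 lies a run of pseudogenes on the minus strand that copies consecutive mitochondrial genes. Gm10222 (chr1:24612407-24612700) matched mt-Nd4l at all 294 bases compared, and Gm28439 (chr1:24611535-24612410) matched the first 876 of the 1378 bases of mt-Nd4 without a difference. Gm28438 (chr1:24612775-24613119) differed from mt-Nd3 at 1 of 345 bases, T3C, counted from 1 at the start of mt-Nd3, with the mitochondrial base first. Its start is shown beside that of mt-Nd3, with the differing base in capitals.
mt-Nd3: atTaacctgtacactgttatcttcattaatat
Gm28438: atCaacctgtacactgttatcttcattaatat
The copy of mt-Nd6, Gm11408 on chromosome 4, was less alike, at 93.6% identity with 33 differences over 519 bases, of which the first 90 bases hold A24G, T48C and A76G.
mt-Nd6: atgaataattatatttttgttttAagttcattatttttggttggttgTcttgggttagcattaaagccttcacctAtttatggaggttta
Gm11408: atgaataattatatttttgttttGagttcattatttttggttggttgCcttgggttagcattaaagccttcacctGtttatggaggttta
Mt-Nd5 was matched by Gm4076 on chromosome 13 (95.2% identity over 954 aligned bases) and Gm11407 on chromosome 4 (92.4% over 1055), and mt-Nd2 by Gm13339 on chromosome 2 (96.7% over 510). None of these pseudogenes was analysed here.

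Members whose sequence is shared with the nucleus were the low ones. Of all stretches of 100 bases in mt-Nd3 and mt-Nd4l, 97.6% and 98.5% also occurred in an annotated nuclear transcript, and for mt-Nd4 the share was 60.8%. It was 3.19% for mt-Nd2 and 0% for mt-Nd1, mt-Nd5 and mt-Nd6. Mean levels over the 6 libraries were 1915 FPKM for mt-Nd6, 1323 for mt-Nd5, 811 for mt-Nd1 and 697 for mt-Nd2. The mean was 401 FPKM for mt-Nd4, 5.75 for mt-Nd4l and 4.43 for mt-Nd3. Thus mt-Nd4 read 38.0 to 654 times as high as mt-Nd4l across the libraries, although the genes are known to share a messenger. The other mitochondrial messengers that are nearly all shared, mt-Co2, mt-Co3 and mt-Atp6, also read low, at 94.0, 80.0 and 144 FPKM. Mt-Atp8 was at 1.06 FPKM with no shared stretch, and mt-Co1, with 30.8% shared, was at 16698. Mt-Nd3, mt-Nd4l and mt-Atp8 were also the shortest of the 13, with 348, 297 and 204 bases. The part of sequence sharing and of length in these levels was not tested.

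**Figure D1:**
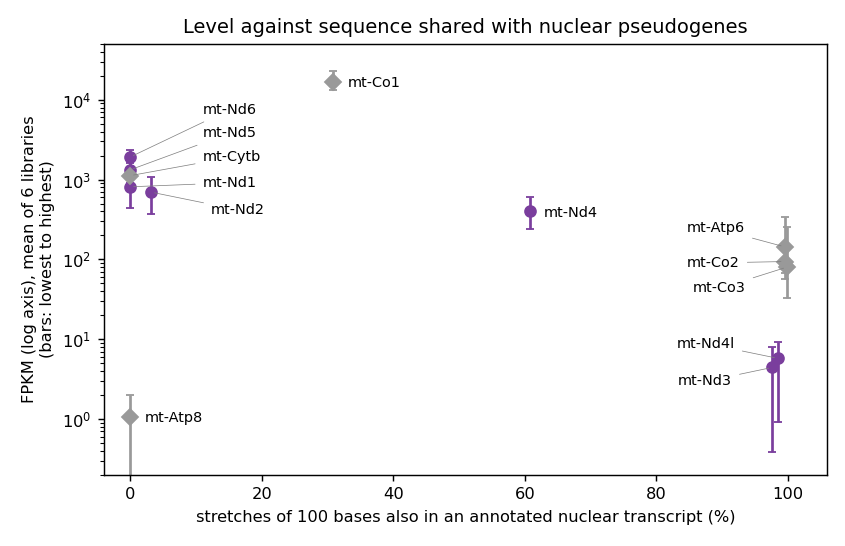
Level against the share of stretches of 100 bases that also occur in an annotated nuclear transcript, for the 13 protein-coding genes of mitochondrial DNA. Points are means of 6 libraries in FPKM on a log axis, with bars from the lowest to the highest library (that of mt-Atp8 runs off the axis, since 1 library is at 0). Purple circles are the 7 complex I subunits and grey diamonds the other 6 genes. Mt-Nd3 (4.43 FPKM) and mt-Nd4l (5.75 FPKM) lie at the lower right.

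The order of the members from high to low was mt-Nd6, mt-Nd5, mt-Nd1, mt-Nd2, mt-Nd4, mt-Nd4l and mt-Nd3 in 4 libraries, the controls and mimics numbered 1 and 2. In negative control 3, mt-Nd2 and mt-Nd4 stood above mt-Nd1, and in mimic 3 mt-Nd2 stood above mt-Nd1. Mt-Nd1 and mt-Nd2 are neighbours in that order whose levels overlapped within each group, as did mt-Nd4l and mt-Nd3. Mt-Nd6 and mt-Nd5 did not overlap in either group. Mt-Nd6 and mt-Nd5 together made up 59.5% to 65.8% of the summed FPKM of the members in controls, and 57.0% to 75.4% with the mimic. Of all fragments, the 7 members took 0.413%, 0.368% and 0.520% in negative controls 1, 2 and 3 and 0.692%, 0.729% and 0.555% in mimics 1, 2 and 3. The lowest share with the mimic was thus above the highest in the controls, 0.555% in mimic 3 against 0.520% in negative control 3. Of single tested genes, 12.6% had all mimic values above all control values. Between these 2 libraries, mt-Nd5 and mt-Nd6 were higher in mimic 3 (44672 and 19001 fragments against 31383 and 13027). Mt-Nd1, mt-Nd2 and mt-Nd4 were lower in it (6466, 8911 and 6232 against 7935, 12056 and 12146). Mt-Nd3 and mt-Nd4l had at most 20 fragments each in either library. For all 13 protein-coding genes of mitochondrial DNA the groups overlapped. Their share was 2.68%, 2.53% and 4.24% in negative controls 1, 2 and 3 and 3.34% to 3.45% with the mimic.

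With all 6 libraries, no member passed the test between mimic and control. The test was limma on log2(FPKM + 1) over the 10166 genes with a mean of at least 1 FPKM, with Benjamini-Hochberg adjustment and a threshold of 0.05. By limma 0 of 7 members passed, against a background of 0% of all tested genes. All 7 estimates were positive, where 56.3% of tested genes had a positive one, and their median log2 fold change was 0.64 against 0.041 for all tested genes. Of the members 6 had an estimate of at least 0.5, which 3.2% of all tested genes reached. At an unadjusted p under 0.05, limma gave 2 members, mt-Nd5 and mt-Nd6, both higher with the mimic. The background for higher genes at that level was 7.96%. Limma voom on recovered fragments passed 0 members and 0 genes in all. It gave 3 members, mt-Nd2, mt-Nd5 and mt-Nd6, as higher at an unadjusted p under 0.05, against 8.92% of its tested genes. With the replicate number as a block, limma again passed 0 members and 0 genes. There mt-Nd3, mt-Nd4l, mt-Nd5 and mt-Nd6, the 4 members higher with the mimic in all 3 pairs of the same number, were at an unadjusted p under 0.05, against 9.27% of tested genes in that direction.

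**Figure D2:**
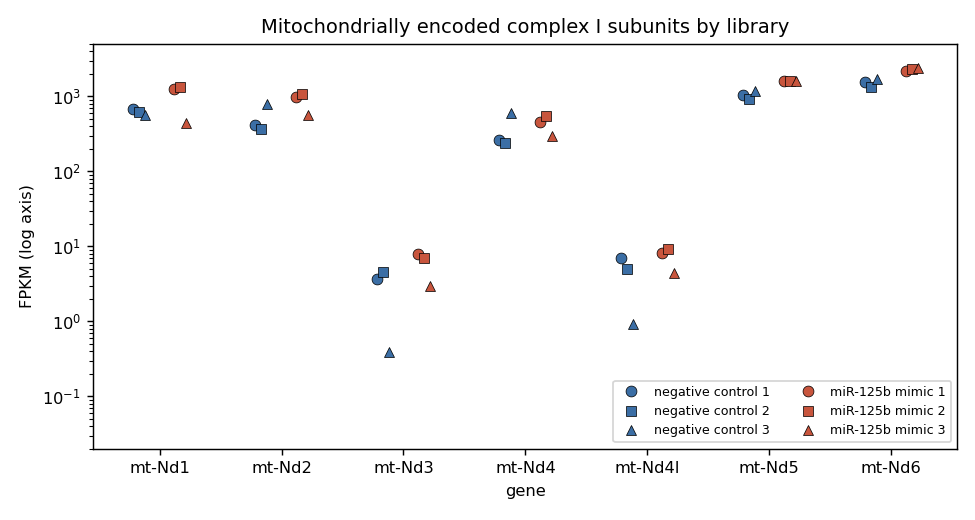
Level of each member in each library, in FPKM on a log axis. Blue symbols are negative controls and red symbols mimics, with circles, squares and triangles for replicates 1, 2 and 3. For mt-Nd5 and mt-Nd6 the 3 mimics lie above the 3 controls, and for the other 5 genes the groups overlap.

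Among the proton-channel subunits, mt-Nd5 gave the cleanest separation. It read 1030, 915 and 1170 FPKM in negative controls 1, 2 and 3 and 1614, 1618 and 1592 in mimics 1, 2 and 3. The groups did not overlap, here and for mt-Nd6 (2 of 7 members), as for 12.6% of tested genes in this direction and 7.49% in the other, and the mimic values were tightly grouped (1038 ± 128 against 1608 ± 14.2 FPKM, SD, n = 3). Its log2 fold change was 0.64 (SE 0.14, limma unadjusted p = 0.00200, adjusted p = 0.332).

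Mt-Nd4 read 263, 241 and 599 FPKM in the controls and 460, 551 and 294 with the mimic. Negative control 3 was the highest of all 6 libraries and mimic 3 lay near negative controls 1 and 2, so the groups overlapped. The log2 fold change was 0.32 (SE 0.38, limma adjusted p = 0.730), and it was 0.74 without negative control 3 (adjusted p = 0.0723) and 0.58 without mimic 3. It was 0.15 without negative control 1, 0.084 without negative control 2 and 0.13 without mimic 2. Mt-Nd2 read 413, 373 and 790 FPKM in the controls and 973, 1072 and 558 with the mimic. Here too the third control was high and the third mimic low, with overlap. The estimate was 0.75 (SE 0.35, limma adjusted p = 0.403). Mt-Nd2 and mt-Nd4 moved alike over the libraries (Pearson's r 0.92 on the log2 scale, n = 6, points sharing library and depth), while mt-Nd4 and mt-Nd5 did so less (r 0.53).

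Mt-Nd1, the quinone-site subunit, read 671, 617 and 564 FPKM in the controls and 1258, 1319 and 439 with the mimic. Mimics 1 and 2 were above every control, and mimic 3 was the lowest of the 6. The log2 fold change was 0.55 (SE 0.40, limma adjusted p = 0.562) and was 1.06 (SE 0.13, adjusted p = 0.274) without mimic 3. It was 0.31 without mimic 1 and 0.27 without mimic 2. Relative to mt-Nd5 in the same library, mt-Nd1 stood at 0.652, 0.675 and 0.482 in the controls and at 0.779, 0.815 and 0.276 with the mimic. Members of the set thus did not keep a fixed proportion to each other.

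Of the small subunits, mt-Nd6 read 1578, 1349 and 1707 FPKM in the controls and 2165, 2310 and 2380 with the mimic. The groups did not overlap, and the log2 fold change was 0.57 (SE 0.14, limma unadjusted p = 0.00467, adjusted p = 0.332). Its level was 1.34 to 1.53 times that of mt-Nd5 in every library, and the genes had the highest correlation of any pair of members (r 0.99, n = 6). Without strand, the readings of this pair are not separate measurements of the stretch they share.

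Mt-Nd3 read 3.69, 4.61 and 0.391 FPKM in the controls and 7.96, 6.92 and 2.99 with the mimic. Behind these values stood 20, 27 and 2 recovered fragments in the controls and 40, 40 and 16 with the mimic. Mimics 1 and 2 were above every control, and mimic 3 was below negative controls 1 and 2. The 2 fragments of negative control 3 have an exact Poisson 95% interval of 0.242 to 7.22, which covers counting error only. The log2 fold change was 0.98 (SE 0.55, limma adjusted p = 0.472), the highest estimate of the 7. In each of the 3 pairs of the same number the mimic was higher, and with the replicate number as a block the SE was 0.21 (unadjusted p = 0.00452, limma adjusted p = 0.266). Without negative control 3 the estimate was 0.36 (SE 0.34, adjusted p = 0.473), and it reached 1.36 without negative control 2. Mt-Nd4l followed mt-Nd3 closely (r 0.96, n = 6). It read 6.91, 5.01 and 0.916 FPKM in the controls and 8.16, 9.13 and 4.38 with the mimic, from 4 to 45 fragments. Its estimate was 0.82 (SE 0.52, limma adjusted p = 0.512) and 0.20 (SE 0.28) without negative control 3, against 1.23 without negative control 1. The mimic was higher in all 3 pairs, and with the block the SE was 0.25 (unadjusted p = 0.0192, limma adjusted p = 0.266). Mt-Nd4l and mt-Nd4, which share a messenger, had r −0.26 over the libraries. Negative control 3 was the lowest library for mt-Nd3 and mt-Nd4l and the highest for mt-Nd4.

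Calls appeared when libraries that stood apart were left out. Without negative control 3, limma passed mt-Nd2 (1.09, adjusted p = 0.0309), mt-Nd5 (0.73, adjusted p = 0.00555) and mt-Nd6 (0.65, adjusted p = 0.00927), which is 3 of 7 members. In that fit 11.5% of all tested genes passed as higher. Without replicate 3 of both groups, which leaves 2 libraries against 2, all 7 passed as higher, against 23.2% of all tested genes. In that fit the log2 fold changes ran from 0.48 for mt-Nd4l (adjusted p = 0.0348) to 1.38 for mt-Nd2 (adjusted p = 0.000659). The estimates for mt-Nd1 and mt-Nd4 were both 1.00, while mt-Nd5 at 0.74 and mt-Nd6 at 0.62 were close to their values with 6 libraries. Genes called lower were 12.1% and 20% in these fits. With array weights, 6 members passed as higher, all but mt-Nd4l (adjusted p = 0.0644), against 25.3% of tested genes higher and 22% lower. Leaving out mimic 3 alone, or control 1, control 2, mimic 1 or mimic 2 alone, gave 0 calls among the members, and 0 among all tested genes.

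**Figure D3:**
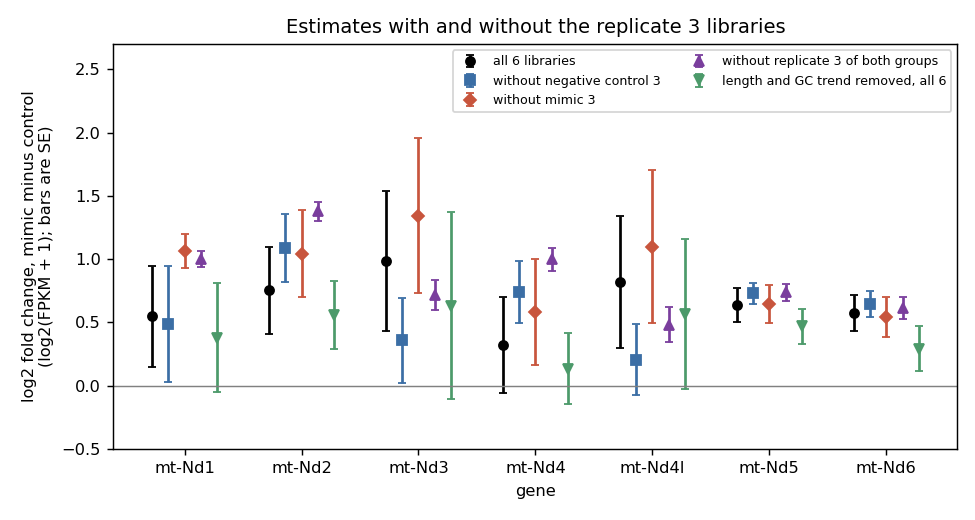
Log2 fold change of each member (mimic minus control, log2(FPKM + 1) scale) with its standard error, for all 6 libraries, without negative control 3, without mimic 3, without replicate 3 of both groups, and after removal of the trend on length and GC. Mt-Nd5 ran from 0.47 to 0.74 and mt-Nd6 from 0.29 to 0.65 over these fits, whereas mt-Nd1, mt-Nd2, mt-Nd3, mt-Nd4 and mt-Nd4l moved over wider ranges.

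Levels of AT-rich nuclear genes also differed between libraries, with negative controls 1 and 2 on one side and the other 4 libraries on the other. The members have a GC content of 33.05% to 41.1%. Among 727 tested nuclear genes with a GC content under 40%, the median deviation from a gene's mean over the libraries was −0.31, −0.29 and 0.17 in negative controls 1, 2 and 3 and 0.13, 0.19 and 0.091 in mimics 1, 2 and 3, in log2 units. Negative control 3 was thus with the mimics. Among the members, that library was the highest control for mt-Nd2, mt-Nd4, mt-Nd5 and mt-Nd6. It was the lowest control for mt-Nd1, mt-Nd3 and mt-Nd4l, with only 2 and 4 fragments for mt-Nd3 and mt-Nd4l. With a smooth trend on exonic length and GC removed from each library, all 7 estimates remained positive with all 6 libraries and 0 members passed. They were 0.47 for mt-Nd5 (unadjusted p = 0.0115, limma adjusted p = 0.427), 0.29 for mt-Nd6 (adjusted p = 0.643), 0.56 for mt-Nd2 and mt-Nd4l, 0.63 for mt-Nd3, 0.38 for mt-Nd1 and 0.13 for mt-Nd4. After the same removal and without negative control 3, 0 members passed, against 0.991% of tested genes higher and 2.8% lower, and mt-Nd3 and mt-Nd4l turned negative (−0.25 and −0.16). With that trend removed and replicate 3 of both groups left out, an alternative chosen after seeing the data, mt-Nd1, mt-Nd2, mt-Nd4 and mt-Nd5 passed at 0.67, 1.00, 0.61 and 0.38 (limma adjusted p = 0.00541, 0.00306, 0.0122 and 0.0340). There 8.34% of all tested genes passed as higher and 11.3% as lower, while mt-Nd3, mt-Nd4l and mt-Nd6 did not pass. The part of GC content in the differences between groups was not tested beyond these fits.

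**Figure D4:**
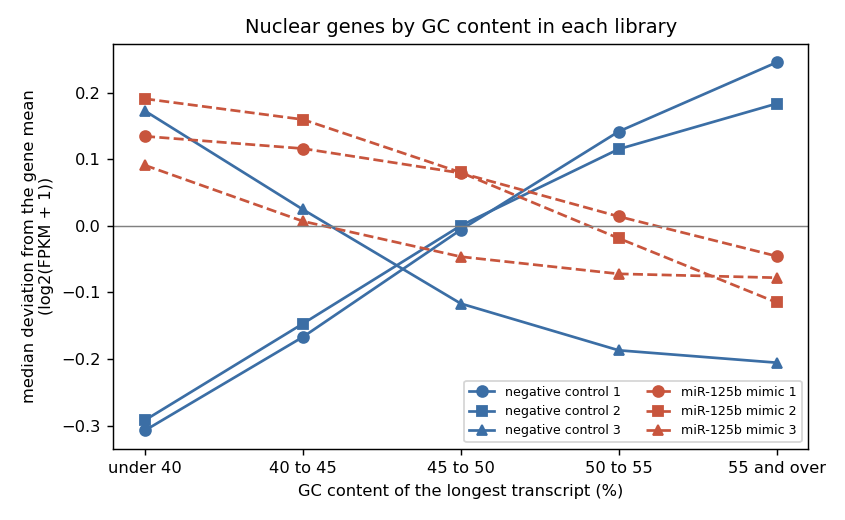
Median deviation of nuclear genes from their mean over the 6 libraries (log2(FPKM + 1)), by GC content of the longest transcript in %. Solid blue lines are negative controls and dashed red lines mimics, with circles, squares and triangles for replicates 1, 2 and 3. Below 40% GC, negative controls 1 and 2 lie at −0.31 and −0.29, and the other 4 libraries between 0.091 and 0.19.

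The other messengers of mitochondrial DNA depended on negative control 3. With all 6 libraries, 0 of these 6 genes passed limma and 0 were at an unadjusted p under 0.05. A positive estimate was found for 4, against 56.3% of all tested genes, and their median log2 fold change as a list of 6 was 0.046. Cytochrome b, mt-Cytb, which belongs to complex III, stood at 0.37 (SE 0.27), from 986 ± 328 to 1253 ± 287 FPKM (SD, n = 3). For the cytochrome oxidase genes the values were 0.045 for mt-Co1 (SE 0.24), 0.26 for mt-Co2 (SE 0.34) and −0.50 for mt-Co3 (SE 0.70). For the ATP synthase genes mt-Atp6 and mt-Atp8 they were 0.047 (SE 0.57) and −0.0026 (SE 0.41). Negative control 3 was the highest control for all 6 of them, reaching 256 FPKM of mt-Co3 against 32.5 and 41.6 in the other controls. Without that library 5 of them were tested, all with a positive estimate (median 0.48), and mt-Atp6 passed limma as higher. Without replicate 3 of both groups all 5 passed as higher (median 0.83). Of all tested genes, 11.5% and 23.2% passed as higher in these fits. A difference between the members and the other messengers was not tested. Mitochondrial ribosomal RNAs were not analysed here.

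Nuclear genes of the same enzyme leaned the other way. Of 7 nuclear core subunits 6 had a negative estimate and of 29 accessory subunits 27, with medians of −0.14 and −0.29, and 0 of either list passed limma. Over all 10166 tested genes, 4438 had a negative estimate. At an unadjusted p under 0.05 there were 1 core and 5 accessory subunits, all lower, against a background of 5.26% for lower genes. Without negative control 3, 2 core and 12 accessory subunits passed as lower, and without replicate 3 of both groups 4 and 15, with 0 higher in either fit. Of all tested genes, 12.1% and 20% passed as lower in these fits. Ndufs3, a core subunit of the peripheral arm, went from 24.6 ± 2.64 to 19.6 ± 0.565 FPKM (SD, n = 3), with an estimate of −0.31 on the log2 scale (SE 0.12, limma adjusted p = 0.346). The other core subunits named by the rule were Ndufv1, which binds NADH, at −0.24 (SE 0.12), and Ndufs7. The latter carries the last iron-sulphur cluster before the quinone and read 42.6, 43.9 and 42.7 FPKM in the controls and 40.7, 32.1 and 38.7 with the mimic. The accessory subunits Ndufb6, Ndufa2 and Ndufc2 stood at −0.86 (SE 0.16), −0.59 (SE 0.13) and −0.61 (SE 0.15), each with limma adjusted p = 0.332 and with no overlap between the groups. Of the 29 accessory subunits, 6 had all mimic values below all control values, as had 7.49% of tested genes. The ratio of the summed FPKM of the 7 mitochondrial members to that of the 7 nuclear core subunits was 12.5, 10.6 and 17.4 in the controls and 23.3, 24.4 and 19.6 with the mimic. All mimic values of this ratio were above all control values, as for 12.6% of single tested genes. Mt-Nd5 and mt-Nd6 made up 59.5% to 65.8% of the summed members in the controls and 57.0% to 75.4% with the mimic. The ratio is therefore not separate from the readings of these 2 genes. Among 2022 tested nuclear genes at 55% GC and over, median deviations were 0.25, 0.18 and −0.21 in the controls. With the mimic they were −0.045, −0.11 and −0.078. Among 1144 of 1000 to 2000 bases they were 0.14, 0.17 and −0.080 in the controls, and −0.059, −0.026 and −0.15 with the mimic. For 386 genes of 500 to 1000 bases the values were 0.062, 0.087 and −0.0072, and −0.051, −0.038 and −0.033 with the mimic. The 159 genes under 500 bases differed, at −0.011, −0.053 and −0.12 in the controls and 0.0034, 0.013 and 0.24 with the mimic. Where the nuclear subunits fall among these ranges of length and GC is not given here. Estimates of the nuclear subunits with the trend on length and GC removed are not given here, and its part in their lean was not tested.

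Assembly factors were split, with 7 positive and 11 negative estimates of 18 tested and a median of −0.079, where 56.3% of all tested genes were positive. By limma 0 passed. At an unadjusted p under 0.05 there was 1 in each direction, and without negative control 3 there were 2 calls in each. The backgrounds were 7.96% higher and 5.26% lower at that unadjusted level, and 11.5% higher and 12.1% lower in that fit. Ndufaf8 and Ndufaf6 stood at −0.45 (SE 0.14) and 0.31 (SE 0.13), and Ndufaf3 at −0.42 (SE 0.21). Of 17 genes of mitochondrial transcription, replication and the nucleoid, 14 had a positive estimate (median 0.13), against 56.3% of all tested genes. By limma 0 passed and 2 were higher at an unadjusted p under 0.05 (background 7.96%). They were Mterf3, a negative regulator of mitochondrial transcription (0.40, SE 0.15), and Tfb2m, the initiation factor that melts the promoter (0.31, SE 0.12). Mterf1a followed at 0.46 (SE 0.27). Without negative control 3, Mterf3 and Tfb2m passed as higher and Top1mt, a mitochondrial topoisomerase, as lower (backgrounds 11.5% and 12.1%). Tfam, the packaging and transcription factor of mitochondrial DNA, read 4.95 ± 0.630 and 5.74 ± 0.897 FPKM, and Polrmt, its RNA polymerase, 5.13 ± 1.36 and 5.00 ± 0.401 (SD, n = 3).

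Of 18 tested genes of mitochondrial RNA processing and decay, 14 had a positive estimate (median 0.054), against 56.3% of all tested genes, and 0 passed limma. Fastk, of which an isoform is known in mouse to be required for mt-Nd6 messenger, was lower at an unadjusted p under 0.05, from 18.7 ± 4.10 to 12.5 ± 1.03 FPKM (SD, n = 3), an estimate of −0.52 (SE 0.17, limma adjusted p = 0.332). It passed as lower without negative control 3, as did Hsd17b10, while Lrpprc and Pnpt1 passed as higher. In that fit 12.1% of all tested genes passed as lower and 11.5% as higher. Fastkd2 and Fastkd1, relatives of Fastk in mitochondrial RNA handling, were higher at an unadjusted p under 0.05, at 0.39 (SE 0.15) and 0.34 (SE 0.14). The backgrounds at that level were 7.96% higher and 5.26% lower. Lrpprc, which stabilises mitochondrial messengers, read 17.2 ± 2.91 and 19.3 ± 0.973 FPKM (SD, n = 3).

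**Figure D5:**
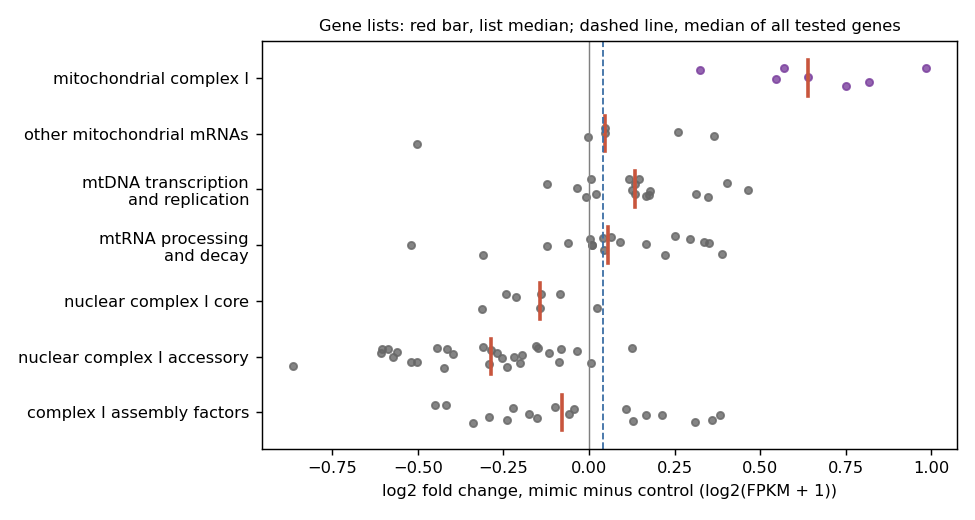
Log2 fold change (mimic minus control, log2(FPKM + 1)) of every tested gene in 7 lists. Each point is a gene, red bars are list medians and the dashed line is the median of all tested genes, 0.041. The mitochondrial complex I genes have a median of 0.64, the nuclear core and accessory subunits −0.14 and −0.29.

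The seed of miR-125b-5p was searched for in the members, since the mimic carries miR-125b. In the mature sequence from RefSeq (GRCm38.p6), the seed, bases 2 to 8, is in capitals.
miR-125b-5p: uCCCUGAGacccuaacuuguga
The sites CTCAGGG and TCAGGGA, and the CTCAGGGA that holds both, were searched on the sense strand only. None of the 7 transcripts held any of these letters. For comparison, CTCAGGG was present in 3.29% of tested nuclear genes' longest transcripts over their first 297 bases, the length of mt-Nd4l, and in 18.3% over their first 1824 bases, the length of mt-Nd5. A shorter match, TCAGGG, was present in mt-Nd1 only, at base 625.

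The nuclear genes most like the mean of the members were found by correlation with the mean log2(FPKM + 1) of the 7 members. The highest were Pcgf6, Man1a2, Slc12a2, Sptlc1 and Mfap3l, with Pearson's r from 0.994 to 0.996 over 6 libraries that share depth and composition. Of such high values there were many: 437 of 10153 tested genes outside mitochondrial DNA had r above 0.9. Pcgf6, a Polycomb group protein, read 4.22, 4.06 and 3.71 FPKM in the controls and 7.11, 7.25 and 4.29 with the mimic, so mimics 1 and 2 were high and mimic 3 was just above the controls. Its lowest library was negative control 3, which was the highest control for mt-Nd2, mt-Nd4, mt-Nd5 and mt-Nd6. Each member counted alike in the mean, also mt-Nd3 and mt-Nd4l with 2 and 4 fragments in that library. A gene close to the mean is therefore not close to every member.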

How the data were processed

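Messenger RNA of 6 libraries was measured, 3 with a miR-125b mimic and 3 with a negative control. The authors deposited 1 FPKM value per gene and library. The tools named by the submitters' processing notes are fastp, HISAT2 and DESeq2, with build mm10. Versions, annotation, counter and strand use were not given in the sources used here. Symbols, exonic lengths and GC came from GENCODE M21, which held 16582 of 16665 identifiers. The depth was that at which values of up to 20 fragments came out whole: 98.5% to 99.0% did within 0.1 fragment. FPKM values are not counts, so the main test was a linear model of log2(FPKM + 1) by limma (version 3.58.1, R 4.3.3), two-sided and with its trend of variance on mean. It was tested on simulated data with the same spread for all genes and libraries and with changes larger than any member's estimate here. Libraries that stand apart and changes of the members' size were not simulated. Copies were searched with BLAST+ 2.17.0. Same-numbered libraries deviated together from their group means (correlations over genes 0.287, 0.183 and 0.339), and the numbers were used as pairs in the block fit. That pairing comes from the data and not from the labels, and mimic 1 correlated slightly more with negative control 2 (0.308). Deviations were taken within groups of 3 in which replicate 3 stood apart. The correlations therefore do not settle how libraries 1 and 2 pair. Members, lists and alternatives were chosen with earlier results of these data known. The genes named are the members, the other 6 mitochondrial messengers, the 3 with the smallest p in each list, the 5 most alike and the pseudogenes. Tfam, Polrmt, Lrpprc and the genes called without negative control 3 were added after their values were seen.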

Additional observations from a re-analysis of the deposited data

How the results depend on the processing

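Over 22 alternatives, 153 single-member estimates were made: 131 kept their positive direction without passing, 20 were positive and passed, and 2 were negative. The negative ones were mt-Nd3 (−0.25) and mt-Nd4l (−0.16), after removal of the trend on length and GC in a fit without negative control 3; their cause was not tested. That setting passed 386 genes and 0 members, with 5 positive members and a median of 0.15. With array weights, which nearly remove the replicate 3 libraries, 4808 genes and 6 members passed. After that removal and without replicate 3 of both groups, chosen after seeing the data, 2004 genes and 4 members did (median 0.38). With libraries left out and no trend removed, genes passing ran from 0 to 4392 (2412 without negative control 3), members passing from 0 to 7, the members' median from 0.55 to 1.04 and positive members from 7 to 7. The replicate block passed 0 members and 0 genes and changed no call. At an unadjusted p under 0.05 it had 4 members and 1682 of 10166 genes, and the median was 0.64. Scaling to genes outside mitochondrial DNA moved the median of all genes to 0.14 and that of the members to 0.76, still with 0 calls, and 70.2% of genes were then positive against 56.3%. With the minimum raised to 5 FPKM, mt-Nd3 was not tested. The sum with nuclear copies could not be run, since no copy was analysed here. For mt-Nd3 and mt-Nd4l the few fragments limit what can be seen: with a pseudocount of 0.1 their estimates were 1.44 and 1.08. No group has the 4 libraries that a test for a stray value needs.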
